A study of Mus musculus with 2 samples.

Results

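The genes of the insulin-like growth factor (IGF) system were followed through single cells of injured mouse muscle: the ligands Igf1 and Igf2, the receptors Igf1r and Igf2r, and 6 IGF-binding proteins, Igfbp2 to Igfbp7. They were taken by name as the family's ligands, receptors and binding proteins, not by their values, and make 10 of the 19169 genes in the deposited table. The question was which cells held each transcript, how the levels varied within fibro-adipogenic progenitors (FAPs), macrophages and endothelial cells, and how they stood in the library labelled KO beside the library labelled WT.

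The study injected cardiotoxin (CTX), a snake venom toxin that kills muscle fibers, into the gastrocnemius of mice and sequenced dissociated muscle cells in droplets, where each captured RNA carries a unique molecular identifier (UMI). The 2 groups were male C57BL/6J WT mice and mice with a global knockout of Gsdme (gasdermin E), the pore-forming protein of a lytic form of cell death; both had received CTX, and no uninjured muscle was in the series. The muscle was taken on day 14, and the methods give 5 mice per genotype without saying whether they were pooled. There was 1 library per genotype, so no test between genotypes was possible and mouse, library and genotype cannot be told apart.

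In the library labelled WT there were 44758518 UMIs in 6354 cells, and in that labelled KO 50930009 UMIs in 7078 cells, with median depths of 5740 and 5962.5 UMIs per cell and 4 barcodes in common. Gsdme did not separate them. It had 225 UMIs in the library labelled WT, a level of 5.03 counts per 1000000 UMIs (CPM; 95% interval, 4.39 to 5.73), and 237 UMIs in the library labelled KO, 4.65 CPM (4.08 to 5.29). The deleted part of the gene is not given in the sources used here, and 5′ reads from outside it would check nothing. Of 23 immediate-early and heat-shock genes, 11 in FAP-like and 16 in MuSC-like cells were past 1.5-fold higher in the library labelled KO, none lower. The shares of all genes past 1.5-fold in either direction were 9.72% and 17.8%. In macrophage-like cells 5 of the 23 were higher and 2 lower, beside 10.8% of all genes. The 4 red-cell genes together were at 69.0 and 559.7 CPM in FAP-like cells, but at 17.6 and 24.0 in tenocyte-like cells. With Alas2 added, they were at 128.2 and 2612 in a FAP subset (FAPs-4-like, below) and at 53.4 and 34.2 in the other FAP-like cells. The part of these genes in the results was not tested.

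IGF-1 is made mainly by the liver under growth hormone and also locally in many tissues, where it acts on neighboring cells. In muscle it supports the growth of fibers and the proliferation and differentiation of satellite cells, the muscle stem cells (MuSCs), and after injury both macrophages and FAPs are known sources. IGF-1 and IGF-2 signal through the IGF-1 receptor, a tyrosine kinase, whereas the IGF-2 receptor, which also carries mannose 6-phosphate enzymes to lysosomes, takes up IGF-2 for degradation. The binding proteins hold the ligands in blood and matrix, prolonging their life or keeping them from the receptor, and proteases such as the pappalysins release them. Igfbp7 binds IGFs only weakly.

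Cells were grouped with the 10 genes and 59 genes of the IGF pathway removed beforehand, so that none of these values drew the groups. All but 3 of 25 clusters took the name of a cell type from marker genes, giving 15 types, of which 11 had at least 50 cells in each library. FAP-like cells, 1903 and 2392 in the libraries labelled WT and KO, carried Pdgfra at 304.9 CPM against 17.4 in all other cells and Dpt at 1472 against 90.2. Macrophage-like cells (834 and 1002) carried Adgre1, the F4/80 antigen, at 553.9 against 8.93 CPM. Pericyte-like cells, whose leading gene was Rgs5, also carried endothelial markers, 5684 and 6240 CPM summed over 8 genes beside 7228 and 9388 for the 8 pericyte markers, at a median depth of 13297.5 and 13072 UMIs. Smooth muscle-like cells (192 and 231), led by Acta2 and Myh11, had more of the pericyte markers, 20740 and 23080 CPM, and less of the endothelial ones, 688 and 820, with Abcc9, Kcnj8 and Higd1b also among their leading genes. The pericyte-like name is therefore not that of the cells with most pericyte RNA. Which part of the pericyte-like values came from endothelial RNA was not tested.

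A level is the summed UMIs of a gene in 1 type and library, as CPM of all their UMIs. Its exact Poisson interval covers counting error only. Values are given for the library labelled WT first and that labelled KO second. All levels were of transcripts, so that protein and secretion were not measured.

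Promoter sequences are given for 3 binding proteins. Igfbp4 was highest in FAP-like cells, while Igfbp3 and Igfbp7 were both highest in endothelial-like and pericyte-like cells. A link between these sequences and the cell types was not tested. The 250 bases before the RefSeq start are given 5′ to 3′ (build GRCm38), with TATAAA, the core of a TATA box, and GGGCGG, the core of a GC box, in capitals on either strand (CCGCCC where the GC box lay on the other strand).
Igfbp3, chr11:7213924-7214173, minus strand: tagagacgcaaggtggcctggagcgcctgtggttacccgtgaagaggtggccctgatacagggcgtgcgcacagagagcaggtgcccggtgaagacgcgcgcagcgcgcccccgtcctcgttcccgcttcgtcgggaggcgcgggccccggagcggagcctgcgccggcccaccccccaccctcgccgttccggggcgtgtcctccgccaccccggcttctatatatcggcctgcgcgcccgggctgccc
Igfbp4, chr11:99040994-99041243, plus strand: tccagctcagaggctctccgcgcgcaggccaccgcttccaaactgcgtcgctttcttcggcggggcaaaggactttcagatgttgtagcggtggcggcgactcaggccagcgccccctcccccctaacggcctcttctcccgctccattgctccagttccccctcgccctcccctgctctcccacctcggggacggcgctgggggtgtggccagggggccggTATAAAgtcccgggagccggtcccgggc
Igfbp7, chr5:77408046-77408295, minus strand: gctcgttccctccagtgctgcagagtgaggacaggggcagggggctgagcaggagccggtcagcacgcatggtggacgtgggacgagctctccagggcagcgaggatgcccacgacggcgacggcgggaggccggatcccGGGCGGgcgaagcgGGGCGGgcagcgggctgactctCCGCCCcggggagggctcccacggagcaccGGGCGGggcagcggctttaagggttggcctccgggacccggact
The Igfbp4 window held TATAAA at positions -28 to -23, where -1 is the last base before the start, and no GGGCGG. The Igfbp7 window held no TATAAA and 4 GGGCGG, starting at -110, -96, -74 and -44, the one at -74 on the other strand. The Igfbp3 window held neither run of letters, though it held tatatat shortly before the start. Only exact matches were searched, so other forms of a TATA box were not looked for. Over 32851 such windows of all genes, 12.4% held TATAAA and 32.7% held GGGCGG on either strand. These matches are letters only, and binding was not measured.

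Igf1, the ligand of the IGF-1 receptor, lies at chr10:87858265-87937042 on the plus strand (GRCm38). Its level was highest in FAP-like cells, at 819.3 CPM (804.0 to 834.8) and 1101 CPM (1086 to 1116). Tenocyte-like cells followed at 540.5 (520.6 to 560.9) and 763.3 (737.9 to 789.4), and macrophage-like cells at 184.2 (171.9 to 197.3) and 296.0 (281.6 to 310.9). The order of these 3 types was the same in both libraries and their intervals did not overlap. Monocyte-like cells were next at 150.7 and 197.7 CPM, overlapping macrophage-like cells in the library labelled WT only. Pericyte-like, MuSC-like and Schwann-like cells lay between 80.2 and 108.2 CPM, and neighbors among them overlapped in each library. T cell-like cells held 54.7 and 86.1 CPM, endothelial-like cells 45.04 and 48.2, smooth muscle-like cells 21.6 and 51.7, and dendritic-like cells the least, 10.7 (10 UMIs) and 4.58 (5 UMIs).

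Among FAP-like, macrophage-like and dendritic-like cells, the same order stood in single cells at equal depth. When each cell was thinned to 1000 UMIs, 44.4% (42.1 to 46.8, exact binomial) and 52.0% (49.9 to 54.0) of FAP-like cells had an Igf1 UMI, and 16.1% (13.5 to 18.95) and 23.9% (21.2 to 26.8) of macrophage-like cells. Dendritic-like cells, chosen as the type with least Igf1, gave 0 of 109 cells, with an upper bound of 3.33%, and 0.826% (0.021 to 4.52). Without thinning the shares were 78.2% and 83.0% in FAP-like, 48.1% and 58.2% in macrophage-like and 4.39% and 4.0% in dendritic-like cells, at median depths of 6870 and 7782.5, 5170 and 5263.5, and 8625 and 9273 UMIs. Thinning left out 149 and 138 FAP-like, 89 and 98 macrophage-like and 5 and 4 dendritic-like cells under 1000 UMIs. The macrophage-like share was thus above that of another myeloid type at a higher depth. As that type was chosen for its low Igf1, the gap follows from the choice and sets no background of free RNA. T cell-like cells had 54.7 and 86.1 CPM of Igf1, and endothelial-like cells 45.04 and 48.2.

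Because FAPs were many as well as rich in Igf1, they held most of its captured transcripts. FAP-like cells held 68.3% of the 16023 Igf1 UMIs in the library labelled WT and 75.0% of the 27517 in that labelled KO, tenocyte-like cells 17.4% and 12.4%, and macrophage-like cells 5.12% and 5.77%. These shares also carry how many cells of each type survived dissociation.

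**Figure D1:**
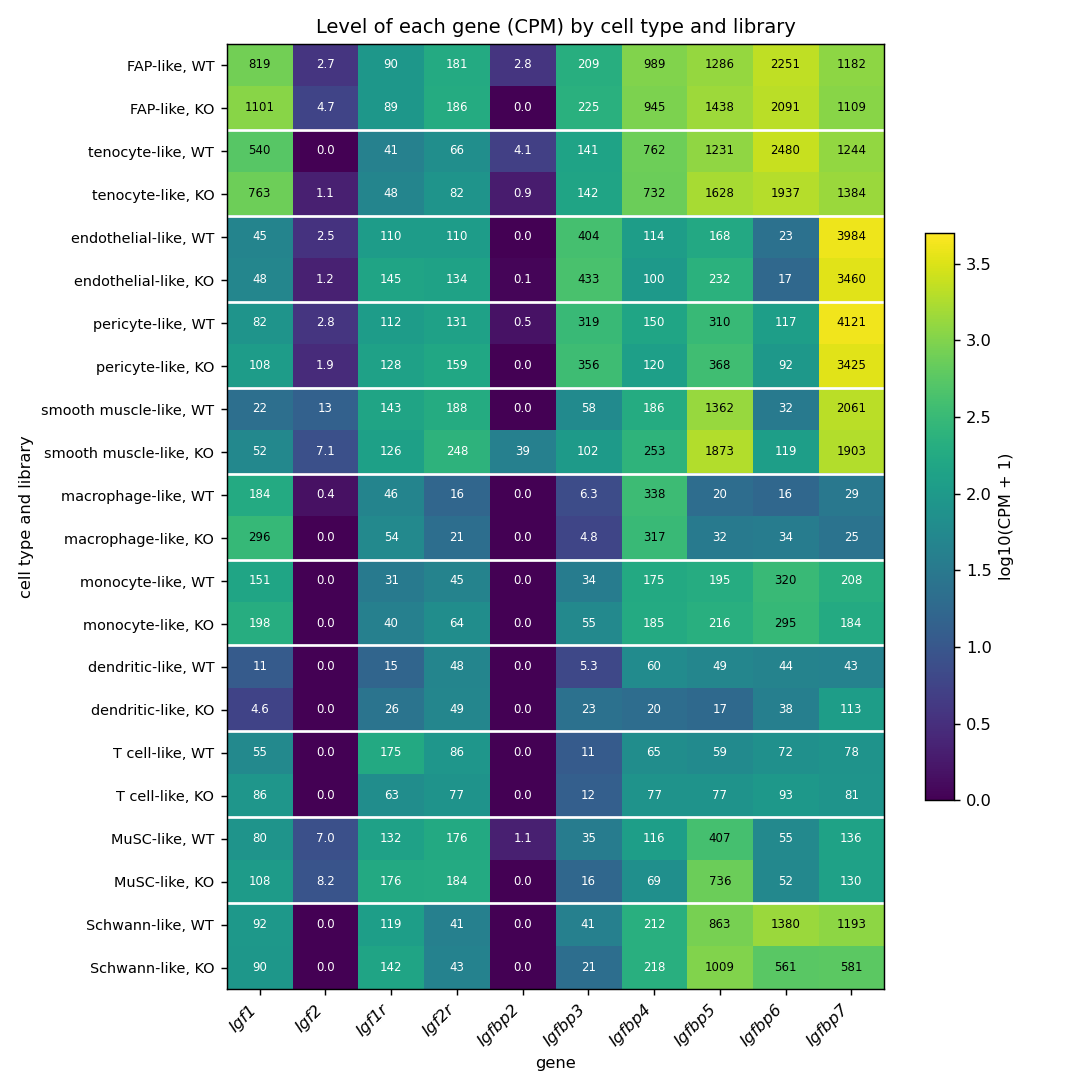
Heat map of the level of each of the 10 genes (columns) in 11 cell types of each library (rows); each cell prints the CPM and its color is log10(CPM + 1). Igf1 and Igfbp6 are brightest in FAP-like and tenocyte-like cells, Igfbp7 in pericyte-like and endothelial-like cells, and Igf2 and Igfbp2 are close to 0 nearly everywhere.

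Igf2, the fetal growth factor of an imprinted locus, lies at chr7:142650766-142666816 on the minus strand. Few transcripts of it were captured, 96 and 134 UMIs in all. MuSC-like cells had 7.05 CPM (13 UMIs; 3.75 to 12.05) and 8.23 (12 UMIs; 4.25 to 14.4), and smooth muscle-like cells 13.0 (6 UMIs; 4.77 to 28.3) and 7.13 (4 UMIs; 1.94 to 18.2). These types overlapped each other in both libraries. FAP-like cells had lower levels, 2.69 and 4.75 CPM, but held 36 of the 96 Igf2 UMIs (37.5%) and 89 of the 134 (66.4%). Within the endothelial-like cells, 14 of 20 Igf2 UMIs in the library labelled WT and 4 of 9 in that labelled KO came from the arterial-like subset, at 12.8 and 4.21 CPM. H19, the noncoding RNA that neighbors Igf2, had 1856 and 2836 UMIs. RNAs antisense to the ligands were near 0 (Igf1os, 3 and 5 UMIs, and Igf2os, 7 and 4). Whether reads of the opposite strand entered the counts of the ligands was not tested.

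Igf1r, which encodes the signaling receptor, lies at chr7:67952827-68233668 on the plus strand. Its transcript was spread over the cell types more evenly than Igf1. MuSC-like cells had 132.2 CPM (116.2 to 149.9) and 175.5 (154.7 to 198.4), smooth muscle-like cells 142.9 and 126.5, Schwann-like cells 118.8 and 141.8, and endothelial-like cells 109.6 and 144.7. FAP-like cells, the main holders of the ligand transcript, had 89.6 (84.6 to 94.9) and 88.8 (84.6 to 93.2), and macrophage-like cells 46.2 and 54.5. T cell-like cells differed between the libraries more than any of these, with 174.6 (139.1 to 216.5) and 63.3 (44.3 to 87.6), and led the order in the library labelled WT, where smooth muscle-like cells overlapped them.

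Igf2r, which encodes the mannose 6-phosphate and IGF-2 receptor, lies at chr17:12682406-12769664 on the minus strand. Smooth muscle-like cells (188.3 and 247.7 CPM), FAP-like cells (181.2 and 185.7) and MuSC-like cells (176.1 and 184.4) led, and their intervals overlapped in the library labelled WT. Macrophage-like cells had the lowest level of the 11 types, 15.7 (12.2 to 19.8) and 20.7 (17.0 to 24.9), so that both receptors were low in a type with the highest Igf1 level after FAP-like and tenocyte-like cells. Airn, the noncoding RNA that overlaps Igf2r on the other strand, was the gene whose level over 15 cell types was most like that of Igf2r (Pearson r = 0.906 on the log2 scale over 12205 genes). The sources used here do not say whether counting used the strand or whether intronic reads were counted, so the reads of these overlapping genes may not be separate.

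The binding proteins divided the cell types among them. Igfbp6, which prefers IGF-2 (chr15:102144362-102149511, plus strand), was highest in tenocyte-like cells in the library labelled WT, 2480 CPM (2438 to 2524) beside 2251 (2226 to 2277) in FAP-like cells, and in FAP-like cells in that labelled KO, 2091 (2071 to 2112) beside 1937 (1897 to 1979). It was low in endothelial-like (23.3 and 16.9) and macrophage-like cells (16.4 and 34.3). FAP-like cells held 64.9% and 77.8% of its UMIs and tenocyte-like cells 27.7% and 17.2%.

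Igfbp4, an inhibitor of IGF action that the protease pappalysin cleaves (chr11:99041244-99054392, plus strand), followed the pattern of Igf1. It stood at 989.1 and 944.7 CPM in FAP-like cells, 762.3 and 731.8 in tenocyte-like cells and 337.5 and 316.9 in macrophage-like cells, and at 113.6 and 100.5 in endothelial-like cells. Macrophage-like cells ranked behind only these 2 of the 11 types for Igfbp4. For Igfbp3, Igfbp5, Igfbp6 and Igfbp7 they ranked last or last but one in each library, at 4.85 to 34.3 CPM.

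Igfbp5, a matrix-bound protein that can raise or lower IGF action (chr1:72857932-72874884, minus strand), was high in smooth muscle-like cells (1362 and 1873), FAP-like cells (1286 and 1438) and tenocyte-like cells (1231 and 1628), and after them in Schwann-like cells (863.0 and 1009). MuSC-like cells had 407.0 and 735.6 CPM.

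Igfbp3, the main carrier of IGFs in blood (chr11:7206086-7213923, minus strand), and Igfbp7 (chr5:77349240-77408041, minus strand) were highest in the cells of vessels. Igfbp3 was highest in endothelial-like cells, at 403.5 (389.7 to 417.6) and 433.1 CPM (418.5 to 448.2), then in pericyte-like cells, at 318.8 and 356.2, and FAP-like cells, at 209.3 and 225.3. Smooth muscle-like cells, which had more pericyte and fewer endothelial markers than the pericyte-like ones, had 58.5 (38.5 to 85.0) and 101.6 CPM (76.9 to 131.6) of it. Igfbp7 stood at 4121 and 3425 in pericyte-like, 3984 and 3460 in endothelial-like and 2061 and 1903 in smooth muscle-like cells. Pericyte-like cells led for Igfbp7 in the library labelled WT, and in that labelled KO the intervals of the first 2 types overlapped (3380 to 3471 and 3418 to 3502). Macrophage-like cells had 29.0 and 24.6 CPM of it. Endothelial-like cells held 38.2% and 32.8% of the Igfbp7 UMIs and pericyte-like cells 28.3% and 27.6%.

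Igfbp2, a binding protein that also circulates in blood (chr1:72824503-72852474, plus strand), was absent from most cells, with 63 and 27 UMIs in all. A single FAP-like cell held 37 of the 63, and a single smooth muscle-like cell 21 of the 27. Its values in these 2 types therefore stand for single cells, while its 21 and 4 UMIs in tenocyte-like cells lay in 12 and 4 cells.

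**Figure D2:**
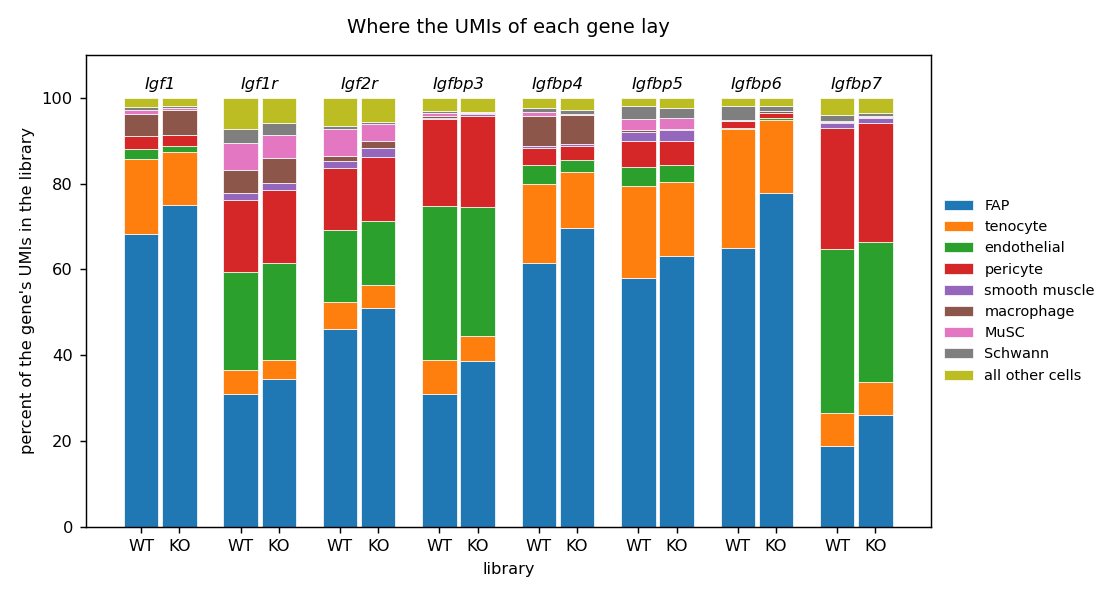
Stacked bars of the percentage of each gene's UMIs that lay in each cell type, 1 bar per library, for the 8 genes with more than 1000 UMIs in each. FAP-like cells hold 68.3% and 75.0% of Igf1, while endothelial-like and pericyte-like cells hold most of Igfbp7 and Igf1r is divided over many types.

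The genes whose level over 15 named cell types was most like that of each member, as Pearson's r of log2(CPM + 10), fell where the members' own levels would place them. These correlations share the same 2 libraries and the depth of each type and are a description. For Igf1 they were Timp2 (0.94), an inhibitor of metalloproteinases, Rnase4 (0.927) and Steap3 (0.91). For Igfbp6 they were Fbln1 (0.958), Fzd2 (0.939) and Dcn (0.939), which code for 2 matrix proteins and a Wnt receptor. For Igfbp7 they were Sparcl1 (0.967), Cavin1 (0.962) and Eml1 (0.957), and for Igfbp3 Adm (0.961), the vasodilator adrenomedullin, Fam13c (0.961) and Mtmr11 (0.951). Igfbp4 was most like C1qtnf1 (0.926), Igfbp5 most like Gpx8 (0.942) and Igf1r most like Dgcr2 (0.919). Igf2 (230 UMIs) and Igfbp2 (90) were too sparse for such a comparison to be read.

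Within FAPs, Igf1 and Igfbp4 were highest in 1 of the named subsets and Igfbp3 and Igfbp5 in others. Subsets were named by markers of the study's FAP groups. Of these groups 4 were found at a resolution of 0.4, and at 0.8 a FAPs-1-like (581 cells) and a FAPs-5-like cluster (576 cells) took names as well. At 0.4 many of the 1903 and 2392 FAP-like cells took no subset name. The largest unnamed clusters were led by Tnc (608 and 808 cells) and by Dnm3os (243 and 309 cells, median depths of 1144 and 1585 UMIs). The FAPs-0-like name went to 491 cells at 0.4 but to 1965 at 0.2, where Tnc was also a leading gene. FAPs-4-like cells (Pi16, Dpp4 and Cd55; 335 and 416 cells), which resemble the stem-like fibroblasts described in many tissues, had the least Igf1, 447.6 CPM (423.1 to 473.2) and 422.7 (402.4 to 443.8). The other FAP-like cells had 917.1 (898.9 to 935.5) and 1275 (1257 to 1294), so that the log2 ratio was -1.04 (-1.12 to -0.95) and -1.59 (-1.67 to -1.52). Of the 4 named subsets, FAPs-3-like cells (Sfrp1, Sfrp4 and Gdf10) had the most Igf1, 1128 and 1476. FAPs-0-like cells (Hsd11b1, Mme and Enpp2) were at 918.1 and 1169 and FAPs-6-like cells (Clu, Myoc and Cyp2f2) at 729.2 and 848.1. The order of the 4 subsets was the same in both libraries.

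FAPs-4-like cells, which also had hemoglobin genes among their leading genes, were rich in Igfbp5 instead. They had 3792 CPM (3720 to 3865) and 4479 (4413 to 4547) against 627.3 and 657.7 in the other FAP-like cells, with log2 ratios of 2.60 (2.55 to 2.64) and 2.77 (2.73 to 2.80). Thinned to 1000 UMIs, 70.5% (65.2 to 75.4) and 70.8% (66.1 to 75.2) of them had a UMI of Igfbp5, against 27.4% and 30.9% of the other FAP-like cells. Unthinned, the shares were 86.3% and 88.2% against 48.3% and 53.8%, with 13 and 12 and 136 and 126 cells under 1000 UMIs. They were also high in Igfbp6 (3365 and 3266) and a little higher in Igf1r, by 0.37 and 0.41 on the log2 scale, and low in Igfbp7 (319.4 and 310.1 against 1409 and 1314) and Igfbp3 (37.4 and 21.4). The FAPs-4-like cells thus held less Igf1 transcript than the other FAP-like cells, with the highest Igfbp5 level of the named FAP subsets. Their Igf1 level was still above that of macrophage-like cells as a type (184.2 and 296.0 CPM). Igfbp4 was alike in FAPs-4-like and other FAP-like cells, with a log2 ratio of 0.04 (-0.02 to 0.10) and -0.03 (-0.08 to 0.03).

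The remaining subsets differed among themselves as well. FAPs-6-like cells held the most Igfbp3 of the 4 subsets, 438.7 and 662.8 CPM, with much Igfbp6 (3492 and 2490) and the least Igfbp4 (536.2 and 525.0). FAPs-3-like cells held the most Igfbp4, 1732 and 1521, and 1958 (1875 to 2043) and 1849 CPM (1776 to 1925) of Igfbp7, beside 1939 (1877 to 2002) and 1627 (1574 to 1680) in FAPs-6-like cells, with the least Igf2r, 88.6 and 91.8. FAPs-0-like cells, led also by Fos, Jun and Hspa1a, were low in Igfbp5 (275.7 and 454.6). A cluster led by Tnc (608 and 808 cells), which took no subset name, had 953.1 and 1433 CPM of Igf1 and little Igfbp5 (350.0 and 327.8).

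A few FAP-like cells went beyond these ranges. A cluster of 12 and 17 cells led by Sfrp5, with Cldn1 and Itgb4, genes of the perineurium, among its leading genes, had 9236 and 14310 CPM of Igfbp6. Every one of its cells had a UMI of Igfbp6.

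**Figure D3:**
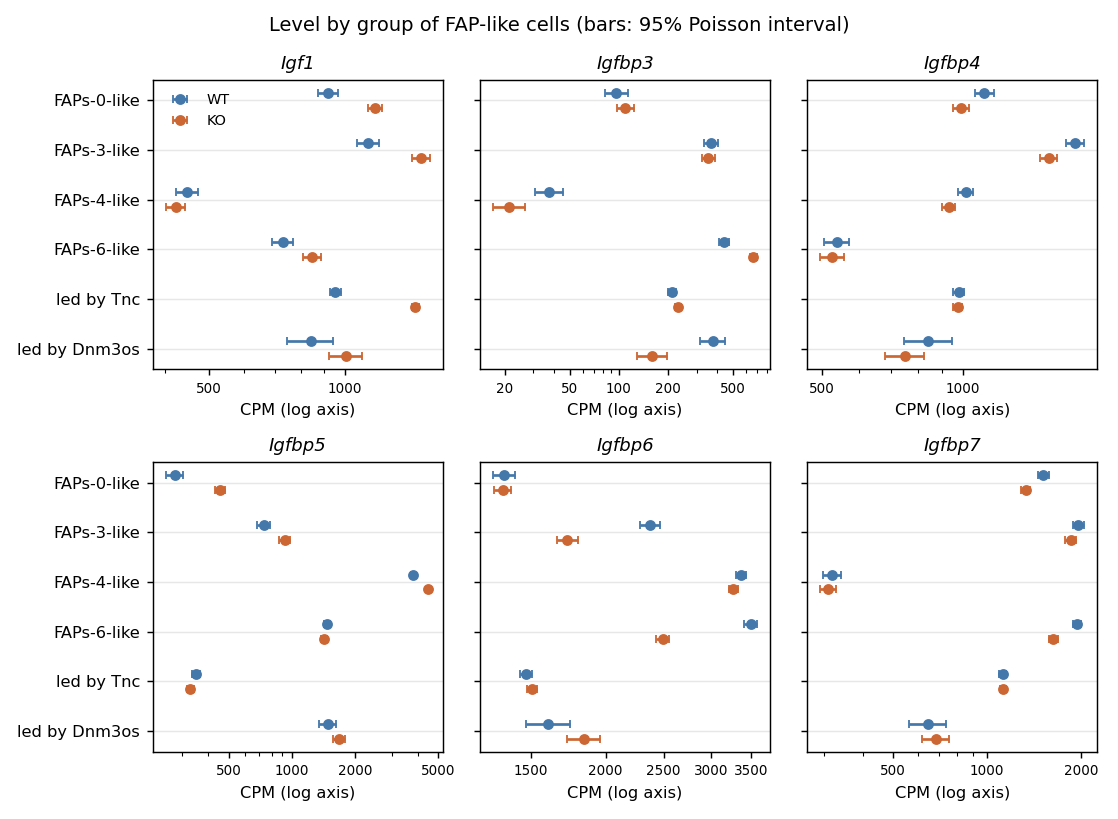
Level in CPM (log axes) of Igf1 and 5 binding proteins in 6 groups of FAP-like cells, blue for the library labelled WT and orange for that labelled KO, with 95% Poisson intervals. FAPs-4-like cells have the lowest Igf1, Igfbp3 and Igfbp7 and the highest Igfbp5 in both libraries.

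Macrophage-like and monocyte-like cells were divided in the same way. M1-like cells (Lyve1, Cd163 and Folr2, genes of resident macrophages; 201 and 228 cells) had 279.8 CPM (249.5 to 312.8) and 383.8 (350.5 to 419.4) of Igf1. M2-like cells (Gpnmb, Trem2 and Clec4d; 285 and 350 cells) had 142.7 (127.1 to 159.8) and 261.3 (241.5 to 282.3). M3-like cells (Ltb4r1 and Ccr2; 98 and 135 cells) had 4.50 (4 UMIs) and 11.4 (14 UMIs). Of the M3 markers only Ltb4r1 was among their 10 leading genes. Nlrp3, another of the study's markers for this group, was a leading gene of the M2-like cluster at resolution 0.2 and of an unnamed cluster at 0.8. Among these 3 subsets Igf1 was thus close to absent from the M3-like cells and highest in the M1-like ones in both libraries. Cells led by Hbb-bt (176 and 215), which took no subset name, had 221.5 (161.6 to 296.4) and 403.7 (331.1 to 487.3), overlapping the M1-like cells. Most M3-like cells were monocyte-like by type, a name that rested on Ccr2 (339.4 CPM against 26.1 in other cells), F10 (204.8 against 4.0) and Lyz1 (2138 against 19.7). The other 4 markers of monocytes went against it, with Plac8 at 21.4 against 41.0, Ms4a4c at 3.74 against 7.41, and Ly6c2 and Chil3 at 0 against 7.96 and 0.507.

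Igfbp4 had the same order with a wider gap. It stood at 643.8 (597.3 to 692.9) and 525.9 (486.8 to 567.2) in M1-like, 147.9 and 178.4 in M2-like and 7.88 (7 UMIs) and 13.9 (17 UMIs) in M3-like cells. In cells thinned to 1000 UMIs, a UMI of it was found in 52.2% (45.1 to 59.3) and 42.1% (35.6 to 48.8) of M1-like and in 5.51% (2.05 to 11.6) and 4.13% (1.36 to 9.38) of dendritic-like cells. Unthinned, the shares were 89.6% and 89.9% against 11.4% and 10.4%, at median depths of 5189 and 5483.5 against 8625 and 9273 UMIs. No M1-like and 5 and 4 dendritic-like cells were under 1000 UMIs. Dendritic-like cells also had the least Igfbp4 of the 11 types, 59.7 and 20.2 CPM, so the size of this gap follows from the choice of type. Igf2r ran the other way, at 3.62 (4 UMIs) and 6.28 (8 UMIs) in M1-like cells against 22.2 and 31.3 in M2-like cells.

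The level of monocyte-like cells as a type, 150.7 and 197.7 CPM of Igf1, did not come from the M3-like cells among them. Of 131 and 173 monocyte-like cells, 86 and 121 were M3-like, while 37 and 43 lay in a cluster led by Col3a1 and Dcn, genes of FAPs. That cluster had 383.3 and 521.9 CPM of Igf1 and 8 FAP markers at a sum of 25980 and 28930 CPM. It had 49.0 and 67.5 Igf1 UMIs per 100 Igfbp6 UMIs, where FAP-like cells had 36.4 and 52.7 and M1-like cells 2060 and 2040. M1-like cells thus had 309 and 489 UMIs of Igf1 with 15 and 24 of Igfbp6.

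**Figure D4:**
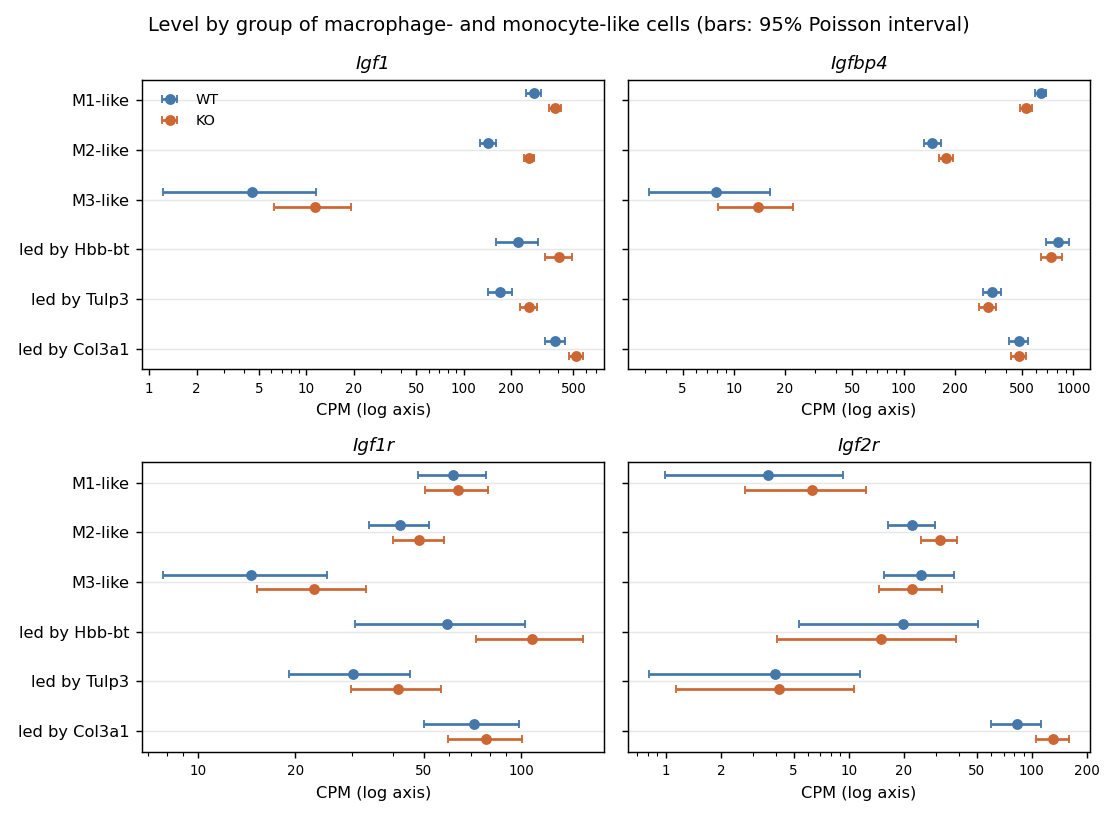
Level in CPM (log axes) of Igf1, Igfbp4, Igf1r and Igf2r in 6 groups of macrophage-like and monocyte-like cells, blue for the library labelled WT and orange for that labelled KO, with 95% Poisson intervals. M3-like cells have the lowest Igf1 and Igfbp4 in both libraries, and the cluster led by Col3a1 the highest Igf1 and Igf2r.

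Endothelial-like cells kept high levels of Igfbp3 and Igfbp7, except for the lymphatic-like ones. Lymphatic-like cells (Prox1, Mmrn1 and Reln; 81 and 77 cells) had 192.3 (160.2 to 228.9) and 226.6 CPM (191.1 to 266.7) of Igfbp7, a log2 ratio to the other endothelial-like cells of -4.49 (-4.75 to -4.24) and -4.05 (-4.30 to -3.81). They had 1673 (1575 to 1775) and 2262 (2147 to 2383) of Igfbp5, with a log2 ratio of 5.60 in each library. A single cell held 21.8% of these Igfbp5 UMIs in the library labelled WT and 44.4% in that labelled KO, and without these cells the levels were 1384 and 1303 CPM. They also had more Igfbp4 than the other endothelial-like cells, 476.1 and 484.6, and less Igf1r, 48.8 and 53.5. Arterial-like cells (Gja5, Gja4 and Sox17; 140 and 132 cells) had the most Igfbp3, 855.5 (801.5 to 912.1) and 994.7 (932.3 to 1060), against 259.2 and 282.7 in venous-like cells (Selp, Vwf and Ackr1).

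Between the libraries, 2 members passed a 1.5-fold rule in FAP-like cells, 3 in macrophage-like cells and none in endothelial-like or pericyte-like cells. A gene was counted as different where its ratio was past 1.5-fold and the exact binomial interval of counting excluded equality, among genes with at least 20 UMIs in both libraries together. In FAP-like cells 2 of 10 members passed, Igf2 (higher) and Igfbp2 (lower), beside 9.72% of 13020 genes. Igf2 was at 2.69 CPM (36 UMIs) and 4.75 (89 UMIs), for a ratio of 0.82 on the log2 scale (0.24 to 1.42). Igfbp2 had 37 UMIs and 0, at least 17.3-fold lower against a floor of 3 UMIs in the library, all 37 from 1 cell. The exact interval of counting, without that floor, allows a ratio of up to 0.0748.

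The remaining 8 genes stayed within 1.5-fold in FAP-like cells. Igf1 was higher in the library labelled KO by 0.43 on the log2 scale (0.39 to 0.46), where the median of all genes was -0.06. The other 7 had log2 ratios from -0.11 (Igfbp6) to 0.16 (Igfbp5). By subset the Igf1 ratio was 0.59 (0.54 to 0.64) in the cells led by Tnc, 0.39 in FAPs-3-like, 0.35 in FAPs-0-like, 0.22 in FAPs-6-like and -0.08 (-0.19 to 0.02) in FAPs-4-like cells. The intervals of the FAPs-4-like cells and of the 3 other named subsets did not overlap, which speaks only of the cells in these 2 libraries.

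In macrophage-like cells 3 of 8 members passed, all higher in the library labelled KO, beside 10.8% of 10448 genes. Igf1 had a log2 ratio of 0.68 (0.56 to 0.81; 184.2 and 296.0 CPM), and no cell held more than 1.46% of its UMIs. By subset the ratio was 0.87 (0.67 to 1.07) in M2-like and 0.46 (0.25 to 0.67) in M1-like cells. Igfbp5 (19.8 and 32.4 CPM; log2 ratio 0.72) and Igfbp6 (16.4 and 34.3; 1.07) moved with FAP markers, whose sum in macrophage-like cells was 727 and 994 CPM. Without the 15 and 26 macrophage-like cells in the cluster led by Col3a1, an alternative chosen after seeing the data, Igf1 was at 185.5 and 293.2 CPM (0.66; 0.54 to 0.79), while Igfbp5 was at 15.2 and 14.3 (-0.09) and Igfbp6 at 14.5 and 18.7 (0.37). Without these cells the Igf1 ratio still passed, and those of Igfbp5 and Igfbp6 did not. The part of FAP RNA in any of these ratios was not tested.

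In MuSC-like cells 3 of 9 members passed, beside 17.8% of 8900 genes. Igfbp5 was higher in the library labelled KO, 407.0 (378.4 to 437.2) and 735.6 CPM (692.2 to 780.9), a log2 ratio of 0.85 (0.72 to 0.99). It was found in 26.0% (20.6 to 32.0) and 38.8% (32.7 to 45.3) of cells thinned to 1000 UMIs, leaving out 6 and 4 cells, and in 52.4% and 67.5% unthinned. Igfbp3 (35.2 and 16.5 CPM; -1.10) and Igfbp4 (116.5 and 68.5; -0.77) were lower. The receptor Igf1r (log2 ratio 0.41; 0.15 to 0.67) did not pass, and FAP markers summed to 4558 and 4101 CPM in these cells.

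In Schwann-like cells 3 of 8 members passed, all lower in the library labelled KO, beside 9.69% of 9041 genes. Igfbp6 was at 1380 (1311 to 1451) and 560.6 CPM (513.3 to 611.0), a log2 ratio of -1.30 (-1.45 to -1.15). Igfbp7 was at 1193 and 581.1 (-1.04) and Igfbp3 at 40.5 and 20.6 (-0.98). A UMI of Igfbp6 was found in 24.4% and 17.3% of these cells, and after thinning in 16.8% (11.3 to 23.4) and 11.9% (6.98 to 18.7), so that a minority of cells held it. The sum of FAP markers moved the same way, 9216 and 5630 CPM. Markers of the perineurium were also above other cells in the Schwann-like clusters of both libraries together. Their mean log2 fold was 2.295 and 0.864 by cluster, beside 6.021 and 3.814 for Schwann markers. These values may thus not be of Schwann cells alone, and the part of FAP or perineurial RNA in the result was not tested.

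In dendritic-like cells 4 of 7 members passed, 2 in each direction, beside 12.1% of 6547 genes. All 4 rested on few UMIs. Igfbp4 had 56 and 22 UMIs (log2 ratio -1.57) and Igfbp5 46 and 19 (-1.50), while Igfbp7 had 40 and 123 (1.40) and Igfbp3 5 and 25 (2.103). FAP markers, like Igfbp4 and Igfbp5, were lower in the library labelled KO (1759 and 950 CPM), and endothelial markers, like Igfbp3 and Igfbp7, were higher (29.9 and 208.9 CPM). Their part was not tested. A single cell held 20 of the 25 Igfbp3 UMIs and 60 of the 123 Igfbp7 UMIs.

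In smooth muscle-like cells 4 of 9 members passed, all higher in the library labelled KO, beside 10.7% of 6669 genes. Igfbp6 had 15 and 67 UMIs (32.5 and 119.4 CPM; log2 ratio 1.88, 1.06 to 2.79), Igfbp3 27 and 57 (0.80), Igf1 10 and 29 (1.26) and Igfbp2 0 and 22, at least 6.04-fold higher against the floor (from 4.51-fold by the exact interval). The ratio of Igfbp3 turned to -0.13 without Harmony, -1.07 when the members took part in clustering and -1.06 without cells under 1000 UMIs, so that its direction depended on which cells were included. FAP markers in these cells summed to 3375 and 5667 CPM and red-cell genes to 123.4 and 20790, and their part was not tested. In T cell-like cells 1 of 7 members passed, beside 13.4% of 5922 genes. This was Igf1r, with 83 and 36 UMIs and a log2 ratio of -1.47 (-2.07 to -0.88), found in 38.0% and 16.8% of 100 and 119 cells at the deposited depth. Thinned to 1000 UMIs the shares were 13.1% (7.18 to 21.4) and 8.47% (4.14 to 15.03), whose intervals overlapped.

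The other types gave little. In tenocyte-like cells 1 of 9 passed (Igfbp2, 21 and 4 UMIs), beside 10.5% of 11071 genes, and Igf1 was higher by 0.50 (0.43 to 0.57) without reaching 1.5-fold. In monocyte-like cells 1 of 8 passed (Igfbp3, 43 and 93 UMIs, 52 of the latter in 1 cell), beside 10.9% of 8237 genes. In endothelial-like cells none of 9 passed, beside 7.38% of 11813 genes, and in pericyte-like cells none of 9, beside 7.78% of 11914. Igfbp7 was lower in both vessel types by 0.20 (0.18 to 0.23) and 0.27 (0.24 to 0.29) on the log2 scale, less than 1.5-fold.

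In all, 22 ratios passed over the 11 types, 12 higher and 10 lower in the library labelled KO. The share of all genes that passed ran from 7.38% in endothelial-like to 17.8% in MuSC-like cells. When the cell with most UMIs of a gene was left out of each library, an alternative chosen after seeing the data, 8 higher and 9 lower passed. The 5 that no longer passed were Igf1 and Igfbp2 in smooth muscle-like, Igfbp3 in monocyte-like and dendritic-like, and Igfbp2 in FAP-like cells. This step is given for the 22 ratios only, with no share of all genes beside it.

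**Figure D5:**
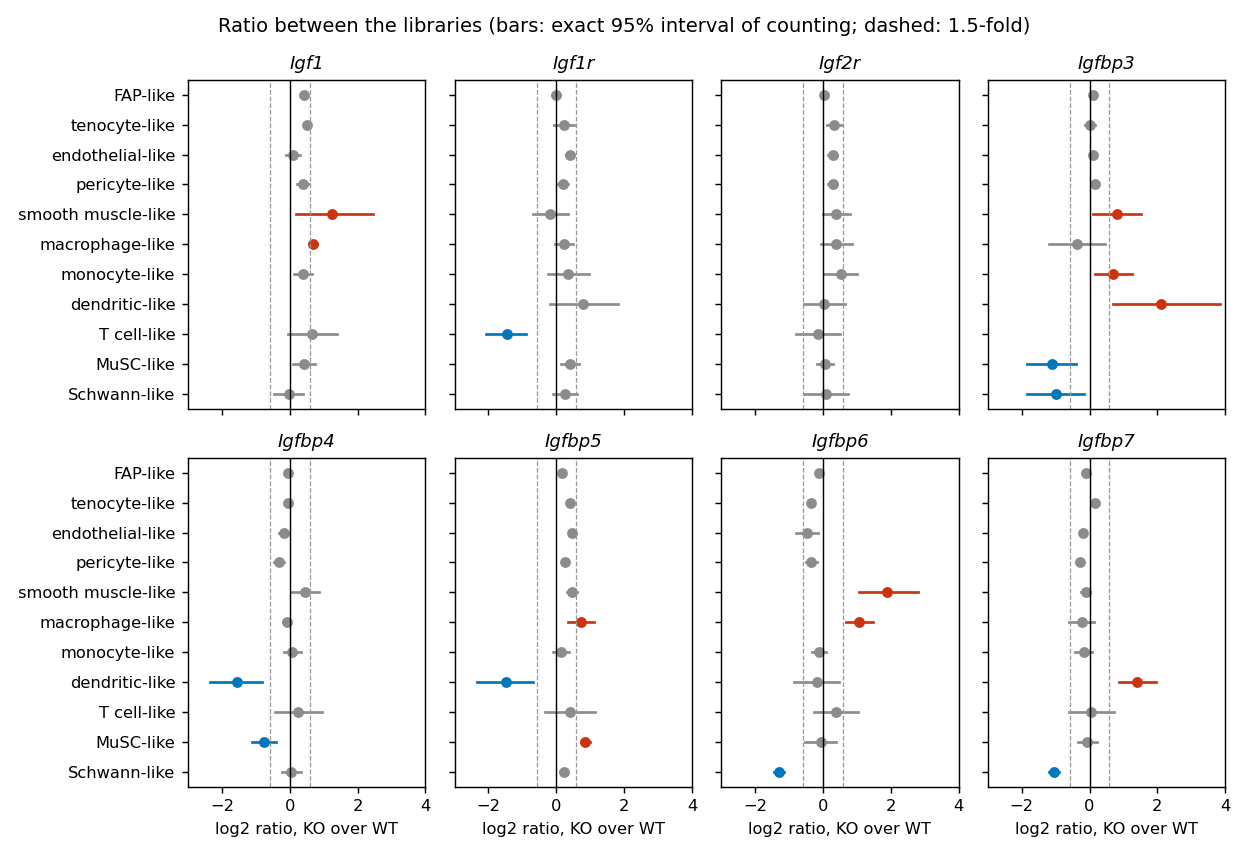
Log2 ratio of the level in the library labelled KO to that labelled WT for 8 genes in each cell type with at least 20 UMIs, with the exact 95% interval of counting; dashed lines mark 1.5-fold, red is higher and blue lower past the rule. FAP-like, endothelial-like and pericyte-like cells lie inside the dashed lines for all 8 genes, and Igfbp5 lies on both sides in different cell types.

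The rest of the pathway was read from 59 genes, of which 57 were in the table (Igfbp1 and Igfbpl1 were not listed). In FAP-like cells 4 of 54 were higher and 3 lower in the library labelled KO, where 9.72% of all genes passed in either direction. Socs3, an inhibitor of cytokine signaling that also stood among the immediate-early genes, was at 565.6 and 894.3 CPM. Igf2bp2, which binds Igf2 mRNA, was at 47.7 and 27.9, and Fbxo32, the muscle atrophy ligase atrogin-1, was lower by 0.84 on the log2 scale. The others were Igf2bp3, Pappa2 and Htra4 (higher) and Stc1 (lower), all under 6 CPM. Of the genes for the receptor's relatives, adaptors and PI3K-AKT arm, none of 17 passed in FAP-like and pericyte-like cells and none of 15 tested in macrophage-like cells. The shares of all genes were 9.72%, 7.78% and 10.8%. In MuSC-like cells 2 of 16 tested were higher and 2 lower, beside 17.8% of all genes. In endothelial-like cells 1 of 15 was lower, beside 7.38%.

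In MuSC-like cells 9 of 46 were higher and 6 lower, in the type where the share of all genes that passed was also highest, 17.8%. Ccn1, a matrix protein related to the binding proteins, was at 106.2 and 355.8 CPM and Igf2bp2 at 71.0 and 176.2. Cish (14.1 and 45.2) and Jak2 (20.6 and 46.6), of growth hormone signaling, and Igf2bp3 (4.88 and 14.4) were higher too. Fbxo32 (33.6 and 6.86), Dlk1 (30.4 and 9.597), Htra1 (37.9 and 21.2), Grb2 (127.4 and 77.5) and H19 (60.7 and 38.4) were lower. In these cells 16 of the 23 immediate-early and heat-shock genes were higher in the library labelled KO.

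In macrophage-like cells 5 of 41 were higher and 3 lower, beside 10.8% of all genes. Cish was at 9.20 and 18.1 CPM, Mmp2, a gelatinase, at 12.6 and 21.1, Igf2bp2 at 4.04 and 8.39, Ccn3 at 3.81 and 7.27 and Plagl1 at 1.35 and 4.10. All of these higher genes stood higher still in FAP-like cells. There Mmp2 was at 1258 and 1409 CPM, Ccn3 at 247.3 and 363.4 and Plagl1 at 242.2 and 184.9. Igf2bp2 was at 47.7 and 27.9 there, and Cish at 33.1 and 29.0. FAP markers in macrophage-like cells summed to 727 and 994 CPM, and the part of FAP RNA was not tested. Foxo1, a transcription factor restrained by IGF-AKT signaling, was at 31.9 and 18.8, Sesn1 at 25.6 and 17.0 and Ccn1 at 40.2 and 16.8. In endothelial-like cells 2 of 49 were higher (Adam12 and Socs2, the latter at 77.2 and 119.3) and 4 lower (Irs2, Ccn2, Plagl1 and Dlk1, with Ccn2 at 69.6 and 39.5), beside 7.38% of all genes. In pericyte-like cells 2 of 52 were higher (Htra4 and Esm1) and 5 lower (Plagl1, Htra3, H19, Dlk1 and Mmp3), among them Dlk1, an imprinted gene, at 59.7 and 19.1, beside 7.78% of all genes. Pappa, the protease that frees IGF from Igfbp4, was highest in FAP-like cells, 21.8 and 17.6 CPM, the type with most Igfbp4. Ghr, the growth hormone receptor, was highest in tenocyte-like cells, 110.4 and 105.8, followed by FAP-like cells at 44.4 and 58.3.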

How the data were processed

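Dissociated cells of gastrocnemius muscle were captured on the Chromium 5′ platform, in 1 library per genotype. The submitters' processing notes name Cell Ranger 2.1.1 and build mm10, whereas the study's methods name a later version of Cell Ranger. Versions differ in whether intronic reads are counted by default, and which of them made the table cannot be told. Per the study's methods, the authors removed doublets with DoubletFinder and cells over 10% mitochondrial RNA. They deposited 1 table of 13432 cells by 19169 genes holding the natural log of 1 plus UMIs per 10000, and a larger number of cells is named in the methods. The barcode suffix gave the library, and 0 columns lacked a sample. Undoing the log gave whole UMIs (all but 34 of 29528482 values above 0 within 0.1, the largest distance being 0.256), a step that was tested on simulated data, as were the intervals.

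Cells were clustered from 2000 variable genes (variance-stabilizing fit, span 0.3, values limited to 10), 30 principal components, Harmony rewritten in numpy (theta 2, sigma 0.1, lambda 1), 20 neighbors, Louvain, resolution 0.8 and seed 1. Subsets used 20 components and resolution 0.4. A name needed at least 3 detected markers with a mean log2 fold of at least 0.5. Clusters whose second lineage reached 25% of the first, and subsets whose leading 10 genes went against the name, were judged by details set after clusters were seen. The clusters without a cell type name held 6.88% and 6.02% of the cells. No cell was removed, and cells under 1000 UMIs numbered 686 and 633. At this depth a gene at 5 CPM gave about as many UMIs as Gsdme, 225 and 237.

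Levels were summed UMIs per 1000000. Intervals (95%) cover counting error only. Named besides the members were, for each of them, the 3 genes with the closest pattern (at least 200 UMIs, 10 CPM added before the log), pathway genes past 1.5-fold in FAP-like, macrophage-like, endothelial-like, pericyte-like and MuSC-like cells (at most 5 per type and direction), Gsdme and naming markers. Ghr, Pappa, Airn and the antisense RNAs were added after their values were seen. The members and lists were chosen with earlier results of these data known. Promoters are from RefSeq (GRCm38.p6), for 3 genes whose RefSeq and GENCODE vM21 starts lay close together, and gene coordinates are from GENCODE vM21. Alternatives varied integration, resolution, doublets, depth, scaling, fold and count minimum. Tools were scanpy 1.11.5 (with Scrublet), igraph 0.11.9, scipy 1.17.1, numpy 2.4.6, pandas 2.3.3 and matplotlib 3.10.9 under Python 3.11.15.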

Additional observations from a re-analysis of the deposited data

Results flagged for a closer look

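For 5 of the genes the ratio between the libraries pointed in opposite directions in different cell types. How many of all genes did so is not given, so this count has no background and is only a description. Per type, from 7.38% to 17.8% of all genes passed. None of these differences between cell types was tested, since each rests on 1 library per genotype. Values are log2 ratios of the library labelled KO to that labelled WT. Igfbp3 was at 0.80 in smooth muscle-like, 0.68 in monocyte-like and 2.103 in dendritic-like cells, and at -1.10 in MuSC-like and -0.98 in Schwann-like cells. The higher values did not hold under every alternative. That in smooth muscle-like cells turned to -0.13, -1.07 and -1.06 under 3 alternatives, and those in monocyte-like and dendritic-like cells no longer passed without the cell with most UMIs. Igfbp5 was at 0.72 in macrophage-like and 0.85 in MuSC-like cells and at -1.50 in dendritic-like cells. Igfbp6 was at 1.88 in smooth muscle-like and 1.07 in macrophage-like cells and at -1.30 in Schwann-like cells. Without the 15 and 26 cells led by Col3a1, the macrophage-like values of Igfbp5 and Igfbp6 were -0.09 and 0.37, and neither passed. Igfbp7 was at 1.40 in dendritic-like and -1.04 in Schwann-like cells. Igfbp2 was at least 17.3-fold lower in FAP-like cells and at least 6.04-fold higher in smooth muscle-like cells, both against a floor of 3 UMIs and from single cells. It was at -2.18 in tenocyte-like cells, and of these types only that one passed without the cell with most UMIs.

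The cluster led by Mcpt4, a chymase of mast cells, took no name and entered no comparison. Its 22 and 21 cells held 8 Igf1r UMIs in each library, 261.7 CPM (113 to 516) in the library labelled WT and 344.6 CPM (149 to 679) in that labelled KO. These intervals reach into those of the named types.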

How the results depend on the processing

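The counts of 12 higher and 10 lower ratios stayed within 1.5 times under all alternatives run, save that leaving out the cells Scrublet called doublets gave 6 lower and a 2-fold threshold 6 higher. Without those doublets the share of Igf1 UMIs in FAP-like and tenocyte-like cells was 86.4% and 88.6% in the libraries labelled WT and KO, against 85.8% and 87.4%. The log2 ratio of Igf1 in FAPs-4-like to other FAP-like cells, -1.04 and -1.59, was -0.93 at subset resolution 0.2 (WT), -0.81 and -1.28 at 0.8, and -0.55 and -1.26 as a mean over cells. As a mean over cells, M3-like Igf1 was -3.66 against other macrophage-like cells and lymphatic-like Igfbp5 6.30 against other endothelial-like cells, in the library labelled WT. The ratio between libraries of Igfbp3 in smooth muscle-like cells, 0.80, turned to -0.13 without Harmony, -1.07 when the members took part in clustering and -1.06 without cells under 1000 UMIs, and that of Igfbp5 in macrophage-like cells, 0.72, to -0.089 without the cells led by Col3a1. The cause was not tested. Of 624 alternative values of 69 single ratios, 535 stayed within the interval of counting, 85 moved beyond it and 4 turned. At resolution 0.2 the arterial-like and venous-like subsets took no name and gave no value. No paired analysis was possible because there was 1 library per genotype.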
